A study of Mus musculus with 10 samples.

Results

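Tight junction and transcytosis genes are the RNAs behind the paths by which solutes and cells can pass the blood-brain barrier. The 9 genes described here were Cldn5, Ocln, Tjp1, Cgn, Cav1, Cav2, Cavin1, Cltc and Src, taken as the rows of the gene count table with those names, out of 54532 genes. All 9 passed the filter on low counts and stood among the 17665 genes tested. RNA-seq libraries came from the brains of 10 Slc20a2-HO mice, which are homozygous for the knockout-first allele Slc20a2 tm1a(EUCOMM)Wtsi and lack intact Slc20a2, the gene of the phosphate transporter PiT2. In the FTY720 group, 6 mice received 0.5 mg/kg FTY720 in dimethyl sulfoxide into the peritoneum from the age of 1.5 months, 3 times a week for 12 weeks, and in the placebo group 4 mice received dimethyl sulfoxide alone. FTY720 (fingolimod) is a sphingosine analog whose phosphorylated form acts on sphingosine-1-phosphate receptors and keeps lymphocytes in lymphoid organs. All mice were perfused with PBS and part of each brain went to RNA, so vessels were measured together with all other brain cells. Each library was 1 mouse, all mice carried the knockout, and wild-type libraries were not analysed here.

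Brain endothelial cells are sealed to each other by tight junctions, in which claudins and occludin span the membrane and are tied to actin by scaffold proteins such as ZO-1 and cingulin. Material can also cross the cell inside vesicles. Caveolae, built by caveolins and cavins, and clathrin-coated pits carry most of this traffic, and brain endothelium keeps its caveolae scarce, in part through the lipid transporter Mfsd2a. Src is a tyrosine kinase that phosphorylates caveolin-1 and junction proteins. The study measured some of these proteins in isolated brain microvessels, between Slc20a2-HO and wild-type mice and not between FTY720 and placebo. Caveolin-2, cavin-1 and cingulin were not among them. The comparison here asks whether the RNAs of the genes described differed in the brain between FTY720 and placebo.

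The mouse names hold a digit, 1 or 3, that the labels do not explain, and the libraries stood apart by it. Of the FTY720 mice, F1-622, F1-624 and F1-918 had the digit 1 and F3-609, F3-612 and F3-908 the digit 3, and of the placebo mice only P1-623 had the digit 1 beside P3-612, P3-904 and P3-907. Summed levels of 10 cerebellum markers were 1556 to 1826 CPM (read counts scaled to a common library total) in the digit 3 mice and 324 to 397 CPM in the digit 1 mice, and Gabra6, a receptor subunit of cerebellar granule neurons, ranged from 130.0 to 172 CPM against 0.0590 to 0.240 CPM. The treatment differences of the 9 genes are therefore given for all mice and with the name digit as a covariate, and within each digit in the plot of treatment differences. Counts summed to between 14772745 and 18303981 per mouse. The targeted gene Slc20a2 was read in every library, at 6.31 to 14.8 CPM in FTY720 and 9.43 to 17.0 CPM in placebo mice, and its log2 fold change between the treatments was -0.24 ± 0.25 (standard error, p = 0.353 in edgeR's quasi-likelihood test and 0.362 in a two-sided exact permutation test). Fitted with the digit in the model, it was -0.09, and within the digit 3 it was -0.00. Between the digits Slc20a2 differed by 0.73 ± 0.15 (adjusted p = 0.00463, edgeR), with 11.5 to 17.0 CPM in the 6 digit 3 mice and 6.31 to 9.43 CPM in the 4 digit 1 mice. With no wild-type library these levels do not check the knockout.

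The promoters of 4 genes are shown in pairs, by how their groups of mice were ordered. Cav2 and Cav1 were each higher in 4 of 6 FTY720 mice than in any placebo mouse, though not in the same 4. Ocln and Cgn were each higher in every digit 3 mouse than in any digit 1 mouse. For all 4 genes the smallest margin was within counting error. These pairs were not the most alike over single mice. Pearson's r, after the digit means were taken out, was 0.71 for Cav1 and Cav2 and 0.67 for Ocln and Cgn, beside 0.87 for Cltc and Tjp1. Each run is the 250 bases before the transcription start, from RefSeq on GRCm38.p6, 5′ to 3′ on the strand of the gene, and capitals mark the motifs GGGCGG (the GC box) and CCAAT and TATAAA, each searched on both strands, with no overlap between motifs. Cav2 (chr6:17280935-17281184, plus strand) and Cav1 (chr6:17306085-17306334, plus strand) come first, then Ocln (chr13:100552719-100552968, minus strand) and Cgn (chr3:94786483-94786732, minus strand). The RefSeq start of Cgn is not that of the counted gene, so 10 bases of its run lie inside the counted gene, and the other 3 runs end just before the counted gene.
Cav2: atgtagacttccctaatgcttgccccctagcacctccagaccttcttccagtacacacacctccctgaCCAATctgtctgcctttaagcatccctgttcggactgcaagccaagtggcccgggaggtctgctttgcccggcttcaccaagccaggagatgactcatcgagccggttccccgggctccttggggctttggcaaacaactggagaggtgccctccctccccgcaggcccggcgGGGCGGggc
Cav1: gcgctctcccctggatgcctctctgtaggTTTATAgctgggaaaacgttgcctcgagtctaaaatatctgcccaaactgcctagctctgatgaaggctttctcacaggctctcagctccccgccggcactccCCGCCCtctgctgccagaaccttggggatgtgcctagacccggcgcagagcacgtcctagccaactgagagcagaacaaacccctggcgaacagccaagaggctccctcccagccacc
Ocln: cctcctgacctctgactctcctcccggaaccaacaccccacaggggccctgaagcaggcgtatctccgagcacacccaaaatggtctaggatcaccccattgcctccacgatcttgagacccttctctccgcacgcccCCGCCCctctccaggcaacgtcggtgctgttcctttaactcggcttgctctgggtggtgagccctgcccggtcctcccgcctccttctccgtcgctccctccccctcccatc
Cgn: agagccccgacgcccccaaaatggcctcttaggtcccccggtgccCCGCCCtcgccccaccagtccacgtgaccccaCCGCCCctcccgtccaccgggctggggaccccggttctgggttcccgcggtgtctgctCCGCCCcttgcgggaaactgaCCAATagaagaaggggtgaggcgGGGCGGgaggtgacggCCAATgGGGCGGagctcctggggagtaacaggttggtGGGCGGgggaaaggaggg

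Cav2 held 1 GC box and 1 CCAAT, and Cav1 held 1 GC box and 1 TATAAA. Ocln held 1 GC box, and Cgn held 6 GC boxes and 2 CCAAT. The same windows of all 32851 RefSeq promoters held a GC box in 32.7%, CCAAT in 33.8% and TATAAA in 12.4%. GC content was 62.0% for Cav2, 59.6% for Cav1, 64.0% for Ocln and 70.4% for Cgn, beside a median of 52.4% over all promoters. Cav2 and Cav1 are neighbours that are read in the same direction, with 17219 bases between the end of Cav2 and the start of Cav1, and an antisense gene, Gm15581, overlaps both. That antisense gene had at most 1 count in any mouse.

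Between FTY720 and placebo, 1 of the 9 genes, Cav2, passed an unadjusted p of 0.05, the threshold of the study, in the edgeR quasi-likelihood test over all mice. Over all genes tested 2.61% passed, and after Benjamini-Hochberg adjustment none did (0% of 17665 genes, 461 at an unadjusted p under 0.05, and also 0 by DESeq2, which left 550 under that unadjusted p). The adjusted p of every one of the 9 genes was 0.99992. The median log2 fold change of the 9 genes was 0.14, beside -0.00 for all genes tested, and 7 of 9 were above 0. No gene of the 9 had groups without overlap, which 0.804% of all genes tested had.

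The tight junction genes came out in both directions, none past the threshold. Cldn5 (chr16:18776847-18778262 on GRCm38, plus strand), the main claudin of brain endothelium, ranged in FTY720 mice from 21.5 CPM over a median of 30.0 to 40.2 CPM. In placebo mice it was 42.7 CPM in P3-612, 35.2 in P1-623, 27.0 in P3-904 and 31.8 in P3-907. Its highest level was in a placebo mouse, and 2 FTY720 mice, F1-624 and F3-609, lay below all placebo mice, but the groups overlapped. The means were 30.0 ± 7.37 (SD, n = 6) and 34.1 ± 6.60 CPM (SD, n = 4), the log2 fold change was -0.19 ± 0.19 (standard error), with a 95% confidence interval of -0.60 to 0.22 and p = 0.339 in edgeR (exact permutation test over 210 splits of the mice, two-sided, p = 0.367). With the digit as a covariate the log2 fold change was -0.24 (p = 0.217, and p = 0.312 in the exact permutation test within the digits).

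Ocln (chr13:100496507-100552718, minus strand), the gene of occludin, a membrane protein of the junction strand, ran in FTY720 mice from 7.59 CPM over a median of 11.1 to 15.0 CPM. In placebo mice it was 12.6 CPM in P3-612, 6.62 in P1-623, 12.4 in P3-904 and 10.1 in P3-907. The lowest 4 levels of Ocln were those of the 4 digit 1 mice, though F1-918 at 9.713 CPM was level with P3-907 at 10.08 CPM within counting error. Its log2 fold change was 0.13 ± 0.24 over all mice (95% confidence interval -0.39 to 0.65, p = 0.595, exact permutation p = 0.638), and 0.31 ± 0.13 with the digit as a covariate (interval 0.03 to 0.59, p = 0.0304, adjusted p = 0.367). Without P1-623 the value over all mice was -0.03. Within the digit 3, F3-609 and F3-612 lay above all 3 placebo mice, and within the digit 1 all 3 FTY720 mice lay above P1-623.

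Tjp1 (chr7:65296165-65527781, minus strand) encodes ZO-1, the scaffold that joins claudins and occludin to actin. It ran from 67.8 CPM over a median of 97.9 to 109.8 CPM with FTY720. In placebo mice it was 63.1 CPM in P3-612, 60.0 in P1-623, 112 in P3-904 and 84.3 in P3-907. The lowest levels and the highest level were all in placebo mice, whose SD of 23.9 CPM (n = 4) was above the 16.7 CPM (n = 6) of the FTY720 mice. The log2 fold change was 0.23 ± 0.19 (95% confidence interval -0.19 to 0.64, p = 0.26, exact permutation p = 0.267) over all mice and 0.31 with the digit as a covariate. Without P3-904 the value was 0.43 and passed 0.05 (adjusted p = 0.776, edgeR). The 3 genes that overlap Tjp1 had at most 4 counts in any mouse.

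Cgn (chr3:94760069-94786492, minus strand), the gene of cingulin, a plaque protein on the inner side of the junction, had the lowest level per length of the 9. It ran from 5.95 CPM over a median of 8.80 to 11.2 CPM with FTY720, and was 9.51 CPM in P3-612, 6.35 in P1-623, 8.43 in P3-904 and 9.37 in P3-907. The groups lay over each other, with a log2 fold change of 0.03 ± 0.19 (95% confidence interval -0.38 to 0.44, p = 0.867, exact permutation p = 0.929), which turned to -0.059 without F3-612 and -0.075 without P1-623. With the digit as a covariate it was 0.15. Between 84 and 193 counts per mouse stand behind these values, the fewest of the 9 genes, and the interval still allows a difference of about the size seen for Cav2.

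**Figure D1:**
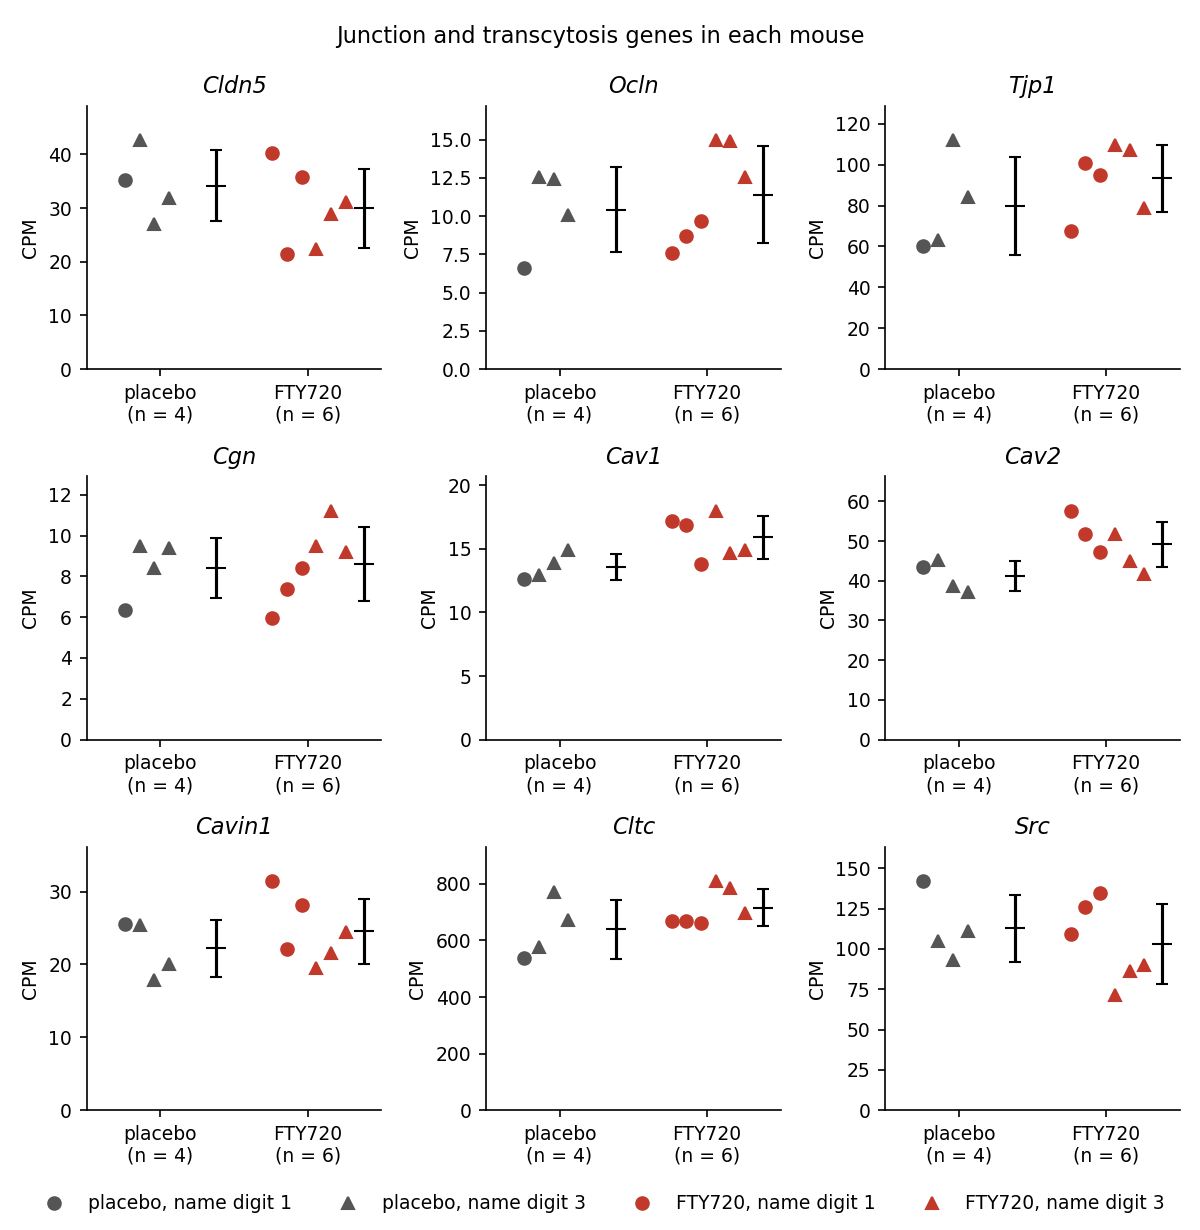
Level of each of the 9 genes in each mouse, in CPM (vertical axis from 0), for placebo (grey, n = 4) and FTY720 (red, n = 6), with circles for name digit 1, triangles for name digit 3 and black bars for the mean ± SD. For Cav1 and Cav2, 4 of the 6 FTY720 mice lie above every placebo mouse, and for Ocln all 6 triangles lie above all 4 circles. The smallest margin in each of these genes is within counting error.

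Cav2 had the highest log2 fold change of the 9 genes over all mice, followed by Cav1 and Tjp1. Cav2 (chr6:17281185-17289115, plus strand), the gene of caveolin-2, which pairs with caveolin-1 in the caveola coat, was 57.6 CPM in F1-622, 51.8 in F1-624, 47.2 in F1-918, 51.7 in F3-609, 45.0 in F3-612 and 41.8 in F3-908. In placebo mice it was 45.2 CPM in P3-612, 43.6 in P1-623, 38.6 in P3-904 and 37.2 in P3-907. The 4 highest FTY720 mice lay above all placebo mice, though F1-918 was level with P3-612 within counting error. The other FTY720 mice, F3-612 and F3-908, fell among the placebo mice. The means were 49.2 ± 5.67 (SD, n = 6) and 41.2 ± 3.84 CPM (SD, n = 4), a log2 fold change of 0.26 ± 0.11 (95% confidence interval 0.01 to 0.50, p = 0.0423 and adjusted p = 0.99992 in edgeR, and p = 0.0429 in the two-sided exact permutation test over 210 splits).

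This call was close to the threshold and several single mice decided it. It no longer passed 0.05 without F1-622 (log2 fold change 0.21), F1-624 (0.24), F3-609 (0.24), P3-904 (0.23) or P3-907 (0.21). The value was 0.22 ± 0.10 with the digit as a covariate (p = 0.0564, adjusted p = 0.404, and p = 0.0750 in the exact permutation test within the digits). Within the digit 3 it was 0.20 and within the digit 1 it was 0.26, both short of 0.05. The direction held in each of these, and the size stayed between 0.19 and 0.31 in every alternative run.

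Cav1 (chr6:17306335-17341452, plus strand), the gene of caveolin-1, without which caveolae do not form, gave values of about the same size. With FTY720 it was 17.2 CPM in F1-622, 16.9 in F1-624, 13.8 in F1-918, 18.0 in F3-609, 14.7 in F3-612 and 14.9 in F3-908. In placebo mice it was 13.0 CPM in P3-612, 12.6 in P1-623, 13.9 in P3-904 and 14.9 in P3-907. Again 4 FTY720 mice lay above all placebo mice, though F3-908 at 14.94 CPM was level with P3-907 at 14.90 CPM within counting error. The means were 15.9 ± 1.68 (SD, n = 6) and 13.6 ± 1.02 CPM (SD, n = 4), and the log2 fold change of 0.23 ± 0.12 had a 95% confidence interval of -0.04 to 0.49 and p = 0.0844 in edgeR (exact permutation test, two-sided, p = 0.0524). Without F1-918 the value was 0.27 and passed 0.05 (adjusted p = 0.985, edgeR), and with the digit as a covariate it was 0.24 and did not pass in edgeR. Permuted within the digits, the exact two-sided permutation test gave an unadjusted p = 0.0250.

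Cavin1 (chr11:100956733-100970887, minus strand) encodes the cytoplasmic coat protein that caveolins need to shape caveolae. It ran from 19.4 CPM over a median of 23.3 to 31.4 CPM with FTY720, and was 25.4 CPM in P3-612, 25.5 in P1-623, 17.8 in P3-904 and 20.04 in P3-907. Only F1-622 and F1-918 lay above the placebo mice. The log2 fold change was 0.14 ± 0.16 (95% confidence interval -0.20 to 0.49, p = 0.385, exact permutation p = 0.410) and 0.06 with the digit as a covariate (p = 0.642).

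Cltc (chr11:86694351-86757565, minus strand), the heavy chain that forms the clathrin cage, had the highest level per length of the 9. It ran from 663 CPM over a median of 683 to 809.6 CPM with FTY720, and was 576 CPM in P3-612, 539.7 in P1-623, 769.8 in P3-904 and 673 in P3-907. The lowest pair of levels were placebo mice and the highest pair FTY720 mice. The log2 fold change was 0.16 ± 0.12 over all mice (95% confidence interval -0.10 to 0.42, p = 0.198, exact permutation p = 0.148) and 0.22 ± 0.10 with the digit as a covariate (interval 0.02 to 0.43, p = 0.0358, adjusted p = 0.375). Without P3-904 the value over all mice was 0.26 and passed 0.05 (adjusted p = 0.776, edgeR).

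Src (chr2:157418444-157471862, plus strand) was the other gene with a log2 fold change below 0. It ran from 71.5 CPM over a median of 99.9 to 135 CPM with FTY720, and was 105 CPM in P3-612, 142 in P1-623, 93.2 in P3-904 and 111 in P3-907. The 3 lowest levels were the 3 digit 3 FTY720 mice, with 71.5 CPM in F3-609, 86.2 in F3-612 and 90.3 in F3-908. The last of these was level with P3-904 within counting error. The digit 1 FTY720 mice lay among the placebo mice, all 3 below P1-623. Over all mice the log2 fold change was -0.13 ± 0.18 (95% confidence interval -0.53 to 0.26, p = 0.485, exact permutation p = 0.476), and 0.0048 without P1-623. With the digit as a covariate it was -0.28 ± 0.10 (interval -0.50 to -0.07, p = 0.0145, adjusted p = 0.354), and within the digit 3 it was -0.31 ± 0.12 (p = 0.0326, adjusted p = 0.654, exact permutation p = 0.10).

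With the name digit as a covariate, 3 of the 9 genes passed an unadjusted p of 0.05, Ocln and Cltc upward and Src downward, where 12.8% of all genes tested passed. Treatment permuted within the digits, over 80 splits, gave exact two-sided permutation p-values of 0.0250 for Ocln, 0.0250 for Cltc, 0.0375 for Src, 0.0250 for Cav1, 0.0750 for Cav2, 0.188 for Tjp1, 0.237 for Cgn, 0.312 for Cldn5 and 0.625 for Cavin1. Over all genes tested 8.54% had an unadjusted p under 0.05 in that exact permutation test, against 4 of the 9. Within the digit 3 alone, 3 FTY720 mice against 3 placebo mice, Src was the 1 gene of the 9 past 0.05, where 7.27% of all genes passed. It was also the 1 gene of the 9 whose groups did not overlap, where 12.9% of all genes did not, and an exact permutation test of 3 against 3 cannot go below p = 0.10. The nearest mice for Src, F3-908 at 90.30 CPM and P3-904 at 93.24 CPM, were level within counting error. Within the digit 1 none of the 9 passed. That comparison has 1 placebo mouse, P1-623, which was assumed to vary like the others.

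**Figure D2:**
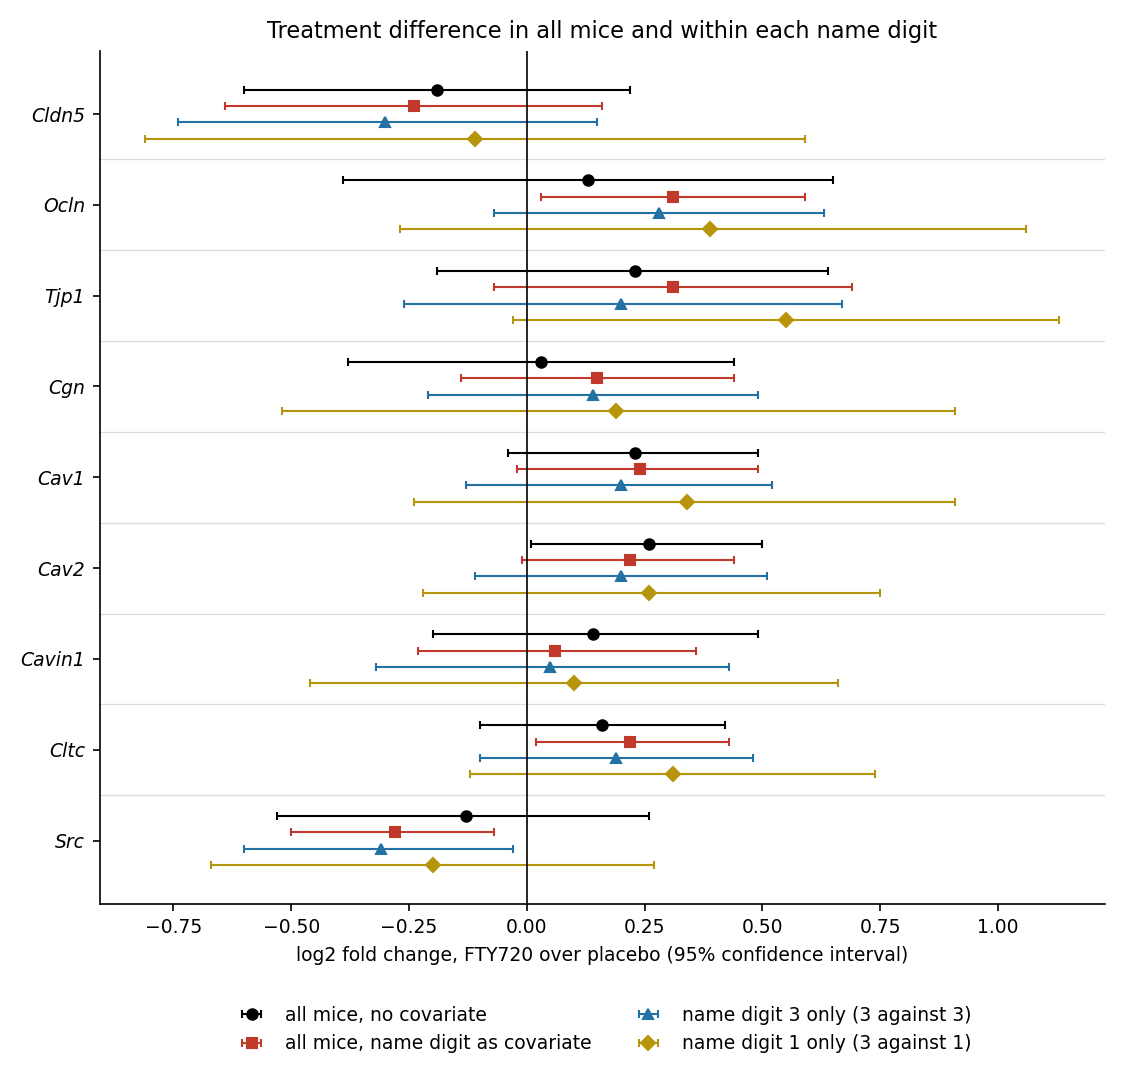
Log2 fold change of FTY720 over placebo (horizontal axis) with its 95% confidence interval for each of the 9 genes, from the edgeR fit of all mice (black), all mice with the name digit as a covariate (red), the digit 3 mice (blue) and the digit 1 mice (yellow). Each gene keeps its side of 0 in all 4 fits, and most intervals cross 0.

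All 9 genes had the same sign within the digit 3 and within the digit 1, which share no mouse, and 66.4% of the 17214 genes tested in both fits did so. Whether the treatment difference itself differed between the digits was tested by their product term. That term passed 0.05 for 0 of 9 genes, and for 1.95% of all genes tested (345 genes at an unadjusted p under 0.05, 0 after adjustment by edgeR, and 279 unadjusted by DESeq2). The terms ran from -0.36 ± 0.38 for Tjp1 to -0.05 ± 0.30 for Cavin1 on the log2 scale, with wide intervals, for instance -1.18 to 0.46 for Tjp1, and with 1 placebo mouse in the digit 1.

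Ocln, Cgn and Src differed further between the name digits than between the treatments. With treatment as a covariate, 3 of the 9 genes passed an adjusted p of 0.05 between the digit 3 and digit 1 mice, Ocln and Cgn higher and Src lower in the digit 3, and 28.4% of all genes tested passed, so the share among the 9 was close to that of all genes. Ocln was 12.9 ± 1.82 CPM (SD, n = 6) against 8.16 ± 1.35 CPM (SD, n = 4), a log2 fold change of 0.74 ± 0.13 (adjusted p = 0.00177, edgeR). Cgn was 9.54 ± 0.918 (SD, n = 6) against 7.02 ± 1.09 CPM (SD, n = 4), a log2 fold change of 0.48 ± 0.14 (adjusted p = 0.0209, edgeR). For both genes the 6 digit 3 mice lay above all 4 digit 1 mice, as 14.2% of all genes did in one direction or the other. In both, the nearest mice were level within counting error. For Ocln these were P3-907 at 10.08 CPM (186 counts) and F1-918 at 9.713 CPM (162 counts). For Cgn they were P3-904 at 8.430 CPM (146 counts) and F1-918 at 8.394 CPM (140 counts). Src was 92.9 ± 14.1 (SD, n = 6) against 128 ± 14.2 CPM (SD, n = 4), with a log2 fold change of -0.54 ± 0.10 (adjusted p = 0.00237, edgeR), and 5 of 6 digit 3 mice lay below all digit 1 mice.

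The call for Cgn depended on single mice and on the setting. Its adjusted p was 0.0666 without F3-612 (log2 fold change 0.42) and 0.0937 without P1-623 (0.46), by edgeR's quasi-likelihood test, and 0.0607 with no filter on low counts (0.46) and 0.0997 in FTY720 mice only (0.48). Without P3-612, Cltc (0.26, adjusted p = 0.0413, edgeR) and Cavin1 (-0.36, adjusted p = 0.0418, edgeR) passed as well. In all mice Cltc was at 0.24 (adjusted p = 0.0807) and Cavin1 at -0.31 (adjusted p = 0.103). The other 4 genes, Cldn5, Tjp1, Cav1 and Cav2, had log2 fold changes of -0.18, 0.28, 0.04 and -0.16 between the digits. The cerebellum markers above moved with the digit, all 10 of 10 higher in the digit 3, as did some markers of other cell types given with the marker lists, and their part in these differences was not tested.

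**Figure D3:**
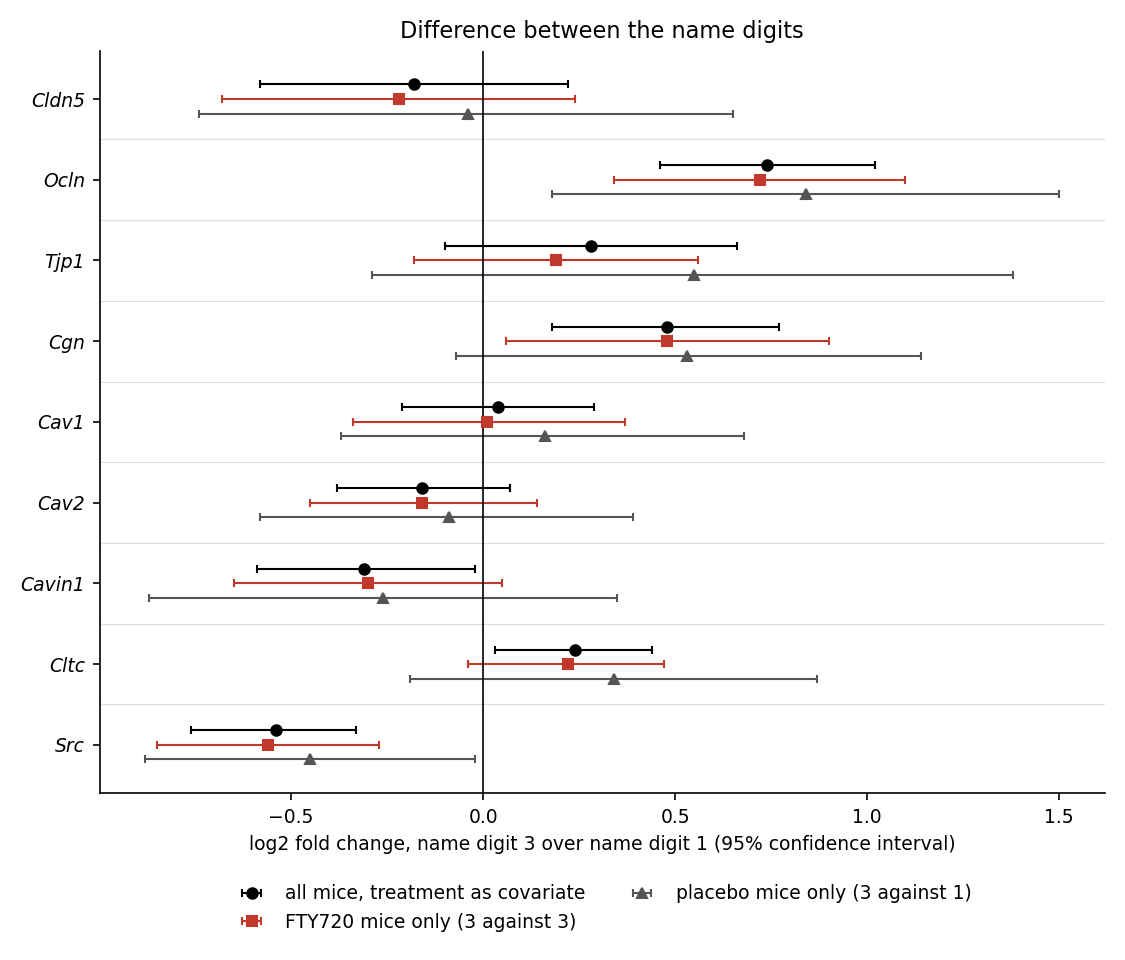
Log2 fold change of name digit 3 over name digit 1 (horizontal axis) with its 95% confidence interval for the 9 genes, in all mice with treatment as a covariate (black), in FTY720 mice (red) and in placebo mice (grey, 3 against 1). Ocln lies at 0.74, 0.72 and 0.84 and Src at -0.54, -0.56 and -0.45 in the 3 fits.

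Bulk brain cannot tell fewer cells of a type from less RNA per cell, so the 9 genes were set beside markers of the cells that could carry them. The 18 endothelial markers were all tested and none was at 0 in any mouse. Their summed level was 417 to 601 CPM in FTY720 mice and 395 to 409 CPM in placebo mice. These sums, in which the most abundant markers weigh most, did not overlap, but the mean log2 CPM of the same markers did, with F1-622 at 4.02 and F1-624 at 4.05 below P3-612 at 4.06. Of the 18 markers 5 passed an unadjusted p of 0.05 between the treatments, all 5 upward, beside 2.61% of all genes in both directions, with a median log2 fold change of 0.25. These 5 were Pecam1 (log2 fold change 0.43), Ly6c1 (0.46), Adgrl4 (0.53), Slco1a4 (0.61) and Abcb1a (0.51), each with an adjusted p of 0.99992 in edgeR. Pecam1 and Ly6c1 are surface proteins of endothelium, and Slco1a4 and Abcb1a are transporters of the barrier. Of 11 mural cell markers tested 1 passed, upward, and their summed level was 180.5 to 227 CPM against 184 to 219.6 CPM. Of the other lists, 2 of 8 fibroblast and 2 of 6 oligodendrocyte markers passed downward, and none of the choroid plexus, cerebellum, neuron, astrocyte, microglia or blood cell markers passed over all mice. With the digit as a covariate, where 12.8% of all genes passed, 9 of 18 endothelial markers did, all upward, with Cdh5, Tek, Kdr and Flt1 added. The endothelial markers Tie1 and Egfl7 went the other way, at -0.10 and -0.25, without passing. In that fit 1 mural marker passed upward and 1 downward, 1 choroid plexus and 2 cerebellum markers upward, and 1 fibroblast, 2 neuron, 2 oligodendrocyte and 1 microglia marker downward. Between the digits 4 of 6 microglia markers were lower in the digit 3, at a summed 211 to 258 CPM against 286 to 325 CPM, where 28.4% of all genes were called in either direction. The 7 neuron markers summed to 4916 to 5062 CPM in the digit 3 mice and 5196 to 5803 CPM in the digit 1 mice, without overlap, and 2 of 7 were lower in the digit 3. Of the others, 2 of 11 mural and 1 of 10 choroid plexus markers were lower, 2 of 18 endothelial markers were higher and 1 lower, 1 of 6 astrocyte markers was higher and 1 lower, and none of the fibroblast, oligodendrocyte or blood cell markers passed by the adjusted p of edgeR. The part of the endothelial level in the values of the 9 genes was not tested.

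Set against the mean log2 CPM of the 18 endothelial markers in the same mouse, the means of Cav2, Cav1, Tjp1 and Cltc lay closer between the treatments than their spread over mice. That endothelial mean was 4.25 ± 0.20 (SD, n = 6) in FTY720 mice and 3.99 ± 0.06 (SD, n = 4) in placebo mice. Relative to it, Cav2 was 1.37 ± 0.30 (SD, n = 6) and 1.38 ± 0.14 (SD, n = 4), a difference of -0.01, and Cav1 was -0.25 ± 0.26 and -0.21 ± 0.11, a difference of -0.04. Tjp1 differed by -0.01 and Cltc by -0.09. Ocln differed by -0.14, Cgn by -0.24 and Cavin1 by -0.12, each below 0 where its log2 fold change was above 0. Cldn5 was 0.62 ± 0.47 with FTY720 and 1.09 ± 0.26 with placebo, a difference of -0.47, and Src differed by -0.41. Neither gene ran with the endothelial markers Cdh5 and Pecam1 over the mice, after the digit means were taken out. Pearson's r was -0.51 and -0.24 for Cldn5 and -0.43 and -0.58 for Src. Their log2 fold changes were -0.19 and -0.13, and the higher marker mean subtracted in FTY720 mice widened them. The values relative to the markers are descriptions without a test, on the log2 scale, and they pool the name digits. Between the digits, 3 minus 1, the same measure differed by 0.55 for Ocln, 0.34 for Cgn and -0.31 for Cav2. For Cavin1 it differed by -0.42 and for Src by -0.58. The digits are unevenly spread over the treatments, and their part in these values was not tested.

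**Figure D4:**
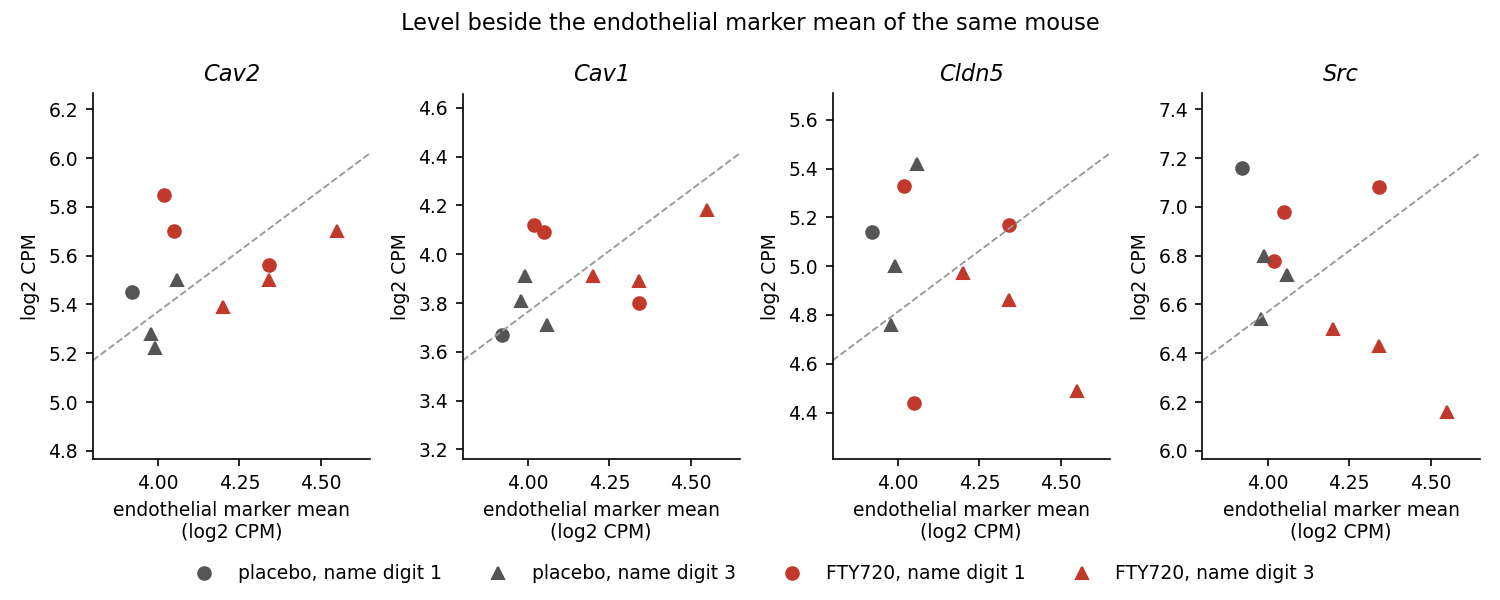
Log2 CPM of Cav2, Cav1, Cldn5 and Src (vertical axis) against the mean log2 CPM of 18 endothelial markers in the same mouse (horizontal axis), for placebo (grey) and FTY720 (red), with circles for name digit 1 and triangles for name digit 3. The dashed line has a slope of 1 through the mean of all mice, on which a gene would lie if it kept a fixed ratio to the markers, and the markers lie further right on average in FTY720 mice, at 4.25 ± 0.20 against 3.99 ± 0.06, with 2 of the 6 FTY720 mice left of the placebo mouse P3-612.

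Compared per length, in FPKM, the order of the 9 genes over all mice was Cltc at 79.8 ± 10.4 (SD, n = 10), Src at 24.2 ± 5.05, Cldn5 at 22.1 ± 4.87, Cav2 at 13.6 ± 1.91, Tjp1 at 11.1 ± 2.55, Cavin1 at 6.51 ± 1.16, Cav1 at 4.31 ± 0.537, Ocln at 2.58 ± 0.691 and Cgn at 1.40 ± 0.265. The ranges over mice separated Cltc from Src, and Cav1 from Ocln. All other neighbours overlapped, and Src lay above Cldn5 in 6 of 10 mice. The order of that pair turned with the digit, the mean of Src lying just under the 21.4 of Cldn5 in digit 3 mice, and at 29.0 against 23.2 in digit 1 mice. Cltc and Src are used by most brain cells, so their levels do not stand for vessels. Cav2 was above Cav1 in each mouse, by 2.58 to 3.60 times, with a mean ratio of 3.20 ± 0.257 (SD, n = 6) in FTY720 mice and 3.15 ± 0.510 (SD, n = 4) in placebo mice. Cldn5 over Ocln, both membrane proteins of the junction strand, varied far more, from 4.44 to 15.9 times, with a mean of 7.27 ± 2.17 (SD, n = 6) in digit 3 mice and 12.5 ± 4.12 (SD, n = 4) in digit 1 mice.

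Across mice, after the mean of each name digit was taken out, the 9 genes did not vary as 1 block. Likeness was Pearson's r of log2 CPM over 10 mice, which share 1 tissue of mixed cells, and it is a description without a test. Cav1 and Cav2 had r = 0.71, Cltc and Tjp1 r = 0.87, and Cldn5 and Cavin1 r = 0.82, while Cldn5 and Tjp1 ran opposite, with r = -0.79, as did Src and Cav2, with r = -0.82. Cldn5 was also opposite to Cdh5, with r = -0.51, where Ocln and Cdh5 had r = 0.67. Among 14783 protein-coding genes the most alike to Cldn5 were Mrps25, Tesc and Rrp36 (r = 0.97 to 0.98), to Tjp1 Nipbl and Ptpn4 (r = 0.99), to Cltc Tnks2, Raph1 and Nup153 (r = 0.98), and to Src Trim8, Ppfia3 and Btbd2 (r = 0.98 to 0.99). Those of Ocln were Slc5a1, Sox7 and Fmo2 (r = 0.92 to 0.94), and those of Cgn Mavs, Nfam1 and Col28a1 (r = 0.90 to 0.92). Cav1 was most like Zfp948, Zfp873 and Exoc2 (r = 0.94 to 0.96), Cav2 most like Gnai3, 1700066M21Rik and a gene whose symbol is held as a date in the table (r = 0.94 to 0.95), and Cavin1 most like Dcaf4, Prorsd1 and Ramp2 (r = 0.95). None of the 9 genes was among another's 3 most alike.

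The wider machinery was followed in 6 lists of partner genes. Of 11 other caveola genes tested, 2 passed an unadjusted p of 0.05 upward with FTY720 and 1 downward, where 2.61% of all genes passed in either direction, with a median log2 fold change of -0.14. Mfsd2a, the lipid transporter that holds caveolae down in brain endothelium, was 23.0 CPM in F1-622, 18.8 in F1-624, 26.7 in F1-918, 18.2 in F3-609, 16.2 in F3-612 and 23.2 in F3-908. In placebo mice it was 15.5 CPM in P3-612, 18.3 in P1-623, 15.9 in P3-904 and 15.7 in P3-907. Of the FTY720 mice 4 lay above all placebo mice, and within each digit all 3 did, where 12.9% of all genes had no overlap within the digit 3 and the digit 1 has 1 placebo mouse. In the nearest mice of each digit Mfsd2a was level within counting error. It was 16.17 CPM in F3-612 and 15.94 in P3-904, and 18.81 in F1-624 and 18.34 in P1-623. Its log2 fold change was 0.36 ± 0.15 (p = 0.0321 and adjusted p = 0.99992 in edgeR), 0.30 with the digit as a covariate (p = 0.0414), and the two-sided exact permutation test gave p = 0.0429 over all mice, 0.0625 within the digits and 0.10 in the digit 3 alone, the smallest that 3 against 3 allows. It was 0.13 ± 0.38 (SD, n = 6) and 0.05 ± 0.17 (SD, n = 4) relative to the endothelial markers on the log2 scale, a difference of 0.08 with the digits pooled.

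Cavin2, a further caveola coat gene, was 13.9 ± 1.81 CPM (SD, n = 6) in FTY720 mice and 10.97 ± 0.954 CPM (SD, n = 4) in placebo mice, and every FTY720 mouse, at 12.3 to 17.1 CPM, lay above the placebo mice, at 9.93 to 12.1 CPM, with the nearest mice level within counting error, as 0.804% of all genes did in one direction or the other (log2 fold change 0.34 ± 0.13, adjusted p = 0.99992, edgeR, and 0.35 with the digit as a covariate). Pacsin3, a membrane-bending protein, fell by 0.41 ± 0.15 on the log2 scale (adjusted p = 0.99992), and was at -0.42 with the digit as a covariate. Of the other lists none had a gene past 0.05 over all mice, from 22 other tight junction genes (median log2 fold change -0.02), 10 adherens junction genes (0.01), 24 other clathrin coat genes (0.01), 9 transcytosis receptors (-0.04) and 8 other Src family genes (-0.00). Cdh5, the VE-cadherin of endothelial adherens junctions and also 1 of the 18 endothelial markers, was 10.8 ± 2.59 CPM (SD, n = 6) in FTY720 mice and 8.33 ± 1.85 CPM (SD, n = 4) in placebo mice, with a log2 fold change of 0.37 ± 0.21 (p = 0.0996 in edgeR, 0.148 in the exact permutation test) over all mice and 0.46 with the digit as a covariate (p = 0.0211 and adjusted p = 0.364 in edgeR, 0.0750 in the exact permutation test within the digits).

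With the digit as a covariate further partners passed 0.05, where 12.8% of all genes did. Of the tight junction list Cldn12 was at 0.22 and Cldn10 at -0.31 (adjusted p = 0.365 for both). Of the adherens junction list Nectin1 at -0.31 and Nectin2 at -0.47 passed beside Cdh5, and of the transcytosis receptors Insr, the insulin receptor, at 0.28. The caveola list gained Plvap, a diaphragm protein of leaky vessels, at -0.38, and the flotillins Flot1 at -0.34 and Flot2 at -0.25. Of the clathrin list 1 passed upward, Fcho2 at 0.25, and 5 downward, Cltb at -0.32, Epn1 at -0.31, Hip1r at -0.26, Fcho1 at -0.21 and Bin1 at -0.27, so the light chain Cltb and the heavy chain Cltc had opposite signs. None of these had an adjusted p under 0.05 in edgeR.

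Between the digits 3 junction partners differed further than any of the 9 genes. Over all genes 28.4% were called between the digits in either direction, beside which the counts of each list stand. Of the 22 other tight junction genes 4 had an adjusted p under 0.05, all higher in the digit 3, among them Patj, a polarity scaffold, at 1.60 ± 0.09 (adjusted p = 1.25e-07, edgeR), Cgnl1, the gene of paracingulin and a relative of Cgn, at 1.11 ± 0.15 (adjusted p = 0.000313, edgeR), and Marveld2, the tricellulin of junctions where 3 cells meet, at 1.79 ± 0.25 (adjusted p = 0.000369, edgeR). Patj was 93.9 CPM in the digit 3 mice on average and 31.3 CPM in the digit 1 mice. Of the clathrin list 4 rose and 9 fell, with Epn1 at -0.73, Fcho2 at 0.59 and Fcho1 at -0.45. Of the caveola list 4 fell, among them Plvap at -0.79, Flot1 at -0.68 and Flot2 at -0.35. Of the adherens junction list Afdn at 0.48 and Jup at 0.31 rose and Nectin2 at -0.56 fell. Of the transcytosis receptors Insr at 0.43, Lrp8 at 0.42 and Lepr at 0.65 rose, and of the other Src family genes Yes1 at 0.39 and Pag1 at 0.61 rose, while Csk, the kinase that shuts Src off, was at -0.29 (adjusted p = 0.0583, edgeR).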

How the data were processed

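RNA-seq libraries of 10 mouse brains (6 FTY720, 4 placebo) were used. The authors prepared libraries with the NEBNext Ultra RNA kit, and their processing notes name CASAVA 1.8, fastp, HISAT2 2.0.5, featureCounts 1.5.0-p3, DESeq2 1.20.0 and GRCm38/mm10. The strand setting and annotation release are not given in the sources used here, so reads of overlapping genes cannot be told apart. The deposited counts per gene were whole numbers without normalization. The FPKM table was deposited too, and each value equals the count over gene length and a total per mouse, as computed here. Mice were grouped by the treatment label, and the name digit was taken from the titles.

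Genes were kept by filterByExpr, scaled by TMM and fitted over the whole table in R 4.3.3 with the quasi-likelihood test of edgeR 4.0.16, with Benjamini-Hochberg adjustment over all genes tested. Standard errors were derived from the F statistic. FTY720 was compared with placebo without a covariate, and a gene was called at an unadjusted p under 0.05, the threshold of the study, here over genes of every biotype and not protein-coding genes alone. The name digits were compared with treatment as a covariate and called at an adjusted p under 0.05. The treatment by digit term came from a fit with both and their product. Mean log2 CPM (prior count 2) of single genes was compared by two-sided exact permutation tests (scipy 1.17.1). CPM used the TMM-scaled totals. FPKM served only for levels between genes.

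The 9 genes and the 16 partner and marker lists were chosen with earlier results of these data known, so no list is independent support. Named were the 9 genes, Slc20a2, Cdh5, Mfsd2a, partner genes with an unadjusted p under 0.05 in the treatment comparison with or without the digit, the 3 partner genes per list with the smallest p between the digits, and the 3 most alike genes of each of the 9, of which 1 is not reported here. The single marker genes and the antisense gene were named after their values were seen. Scripts were tested on simulated data. The alternatives were DESeq2 1.42.0, upper-quartile or RLE scaling, leaving out the filter, at least 10 counts in every mouse, limma 3.58.1 (voom, and log2 of FPKM + 0.1 or + 1), the digits as covariates or subsets, and each mouse left out. Depth was 14772745 to 18303981 counts per mouse, and 84 to 13579 counts stand behind each value of the 9 genes.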

Additional observations from a re-analysis of the deposited data

How the results depend on the processing

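Of the 9 genes, 1 passed between FTY720 and placebo over all mice. The count was 0 with upper-quartile scaling, with no filter, with the leading digit of the mouse number as a covariate and within the digit 1, and 3 with the name digit, or both digits, as covariates. It ranged from 0 to 2 when 1 mouse was left out. The treatment values of the 9 genes kept their direction in all other alternatives, 7 moving past 0.05 and 7 back. With 1 mouse left out, values changed sign for Ocln (-0.03), Cgn (-0.059 and -0.075) and Src (0.0048), within ranges of -0.03 to 0.23, -0.075 to 0.12 and -0.22 to 0.0048. Over all genes, 461 of 17665 tested passed an unadjusted p of 0.05, against 1117 of 36165 with no filter, 2256 with the name digit and 1936 with both digits as covariates, 1283 within the digit 3, 984 without P3-904, 300 without P3-612 and 281 without P3-907.

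Between the digits the count of 3 was 0 in placebo mice alone, 2 with no filter and in FTY720 mice alone, and ranged from 2 to 5 when 1 mouse was left out. Cav1 turned from 0.04 to -0.022 without a covariate, and to -0.008, -0.014 and -0.0095 without F1-918, F3-609 and P1-623, with 0.083 as its highest value when 1 mouse was left out. Over all genes, 5010 passed an adjusted p of 0.05, against 2913 of 15376 tested in FTY720 mice and 3 of 15876 in placebo mice alone, 2908 without F3-609 and 2593 without P1-623. The treatment by digit count stayed at 0 in every alternative, and leaving out 1 mouse turned the terms of Cldn5 (0.015, from as low as -0.42), Cgn (0.051, from -0.19), Cav2 (0.0017 and 0.02, from -0.15) and Cavin1 (0.05, 0.03 and 0.1, from -0.18), none past the threshold. Without P1-623 that term could not be fitted. The term passed for 345 of 17665 genes, against 905 of 36165 with no filter and 222 without P3-907. The cause of these changes was not tested beyond what each alternative leaves out. No paired analysis was possible because the treatments share 1 mouse number, 612 (F3-612 and P3-612), and the labels do not say what it marks. With 4 and 6 mice the widest 95% interval of the 9 genes between the treatments, that of Ocln, ran from -0.39 to 0.65 on the log2 scale.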
